A study of Mus musculus with 12 samples.

Results

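Mitochondrial ribosomal protein genes were taken as the rows of the deposited expression table whose symbol starts with Mrpl or Mrps followed by a digit, without the rows marked as pseudogenes. The rule found 76 genes of the 14460 in the table, 49 coding for proteins of the large subunit, 26 for proteins of the small subunit, and Mrps36. All 76 reached the minimum mean signal of 1 and were among the 12879 genes tested. They lie on 17 chromosomes, 10 of them on chromosome 11. The rule used names alone and no measured value.

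The mitochondrial ribosome makes the few proteins that the mitochondrial genome encodes, all of them parts of the respiratory chain and of ATP synthase. Its ribosomal RNAs come from mitochondrial DNA, while every protein subunit is encoded in the nucleus, made in the cytosol and imported. Some subunits have a counterpart in the bacterial ribosome and others exist only in mitochondria. Macrophages are known to shift between glycolysis and respiration with their state.

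RNA was sequenced from GFP-positive cells sorted from hearts of Cx3cr1GFP/+ mice aged 2 to 3 months, which carry GFP in place of 1 copy of the chemokine receptor gene Cx3cr1 in every group, so that no group has the gene intact in both copies. Day 3, day 7 and day 30 hearts had received cryoinjury, in which part of the heart wall is killed by cold, while day 0 hearts were uninfarcted and had no surgery. Day 0, day 7 and day 30 cells were sorted as Ly6clow and CX3CR1high and day 3 cells as Ly6chigh and CX3CR1low. In every comparison with day 3, time after injury and sorting gate therefore cannot be told apart, and with no sham-operated group among the 12 libraries surgery and cryoinjury cannot be told apart either. Each of the 4 groups had 3 libraries, which the labels call independent biological replicates.

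Depth was 5828904 to 13199576 reads per library, and the 76 genes received 5349 to 12943 of them, so that 1 read was worth 0.0634 to 0.181 units of signal. Signal is the authors' normalised read count on a linear scale. Changes are log2 fold changes of signal + 1 with their standard error (SE), which understates changes of low genes, and p-values are from limma, adjusted over all 12879 genes, with 0.05 as threshold. The 3 day 30 libraries were unusually alike: the chi-square per gene between pairs averaged 2.03 to 2.38, against 5.09 to 36.8 for pairs in the other groups. They differed by more than sampling noise and were kept as 3 samples, and counts with day 30 taken as 1 sample are given where they bear on a result. The first day 0, the first day 3 and the second day 7 libraries stood apart from the others of their groups, with chi-squares of 17 to 36.8 to their partners, against 5.09, 5.76 and 10.7 between those partners. The 8 macrophage markers summed to a signal of 7529 to 10785 in the day 3 libraries, against 12123 to 19327 in those of the other days. Of the 8, 3 were higher and 4 lower at day 3 than at day 0, against 22.1% of all genes tested in each direction. The 6 markers of Ly6C-high monocytes summed to 3435 to 5169 at day 3 and to 200 to 843 in the other groups, as the gates imply.

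The summed signal of the 76 genes was highest at day 7 and lowest at day 30. It was 944, 1005 and 969 in the day 0 libraries, 1036, 1081 and 1077 at day 3, 1062, 1173 and 1197 at day 7, and 803, 819 and 820 at day 30. The day 30 libraries lay below every other library, and the day 0 libraries below every day 3 and day 7 library. This order is one of normalised signal. As a share of all reads, day 0 library 2 (9586 of 10334937) was below day 30 library 1 (10293 of 10641515). The rows of mt-Rnr1, mt-Rnr2, Gm26924 and Lars2 together took 30.4% to 49.3% of reads at day 0 and 25.5% to 32.4% at day 3. At day 7 they took 35.4% to 47.7% and at day 30 25.5% to 25.9%. Their part in the order was not tested. The group means were 973 ± 30.6, 1065 ± 25.1, 1144 ± 71.5 and 814 ± 9.87 at days 0, 3, 7 and 30 (SD, n = 3 each). Genes with much signal weigh most in such sums. Per gene, the median change at day 3 against day 0 was -0.00, with 38 changes above 0 and 38 below. In bulk samples, less of this RNA per cell and fewer cells that carry much of it cannot be told apart.

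**Figure D1:**
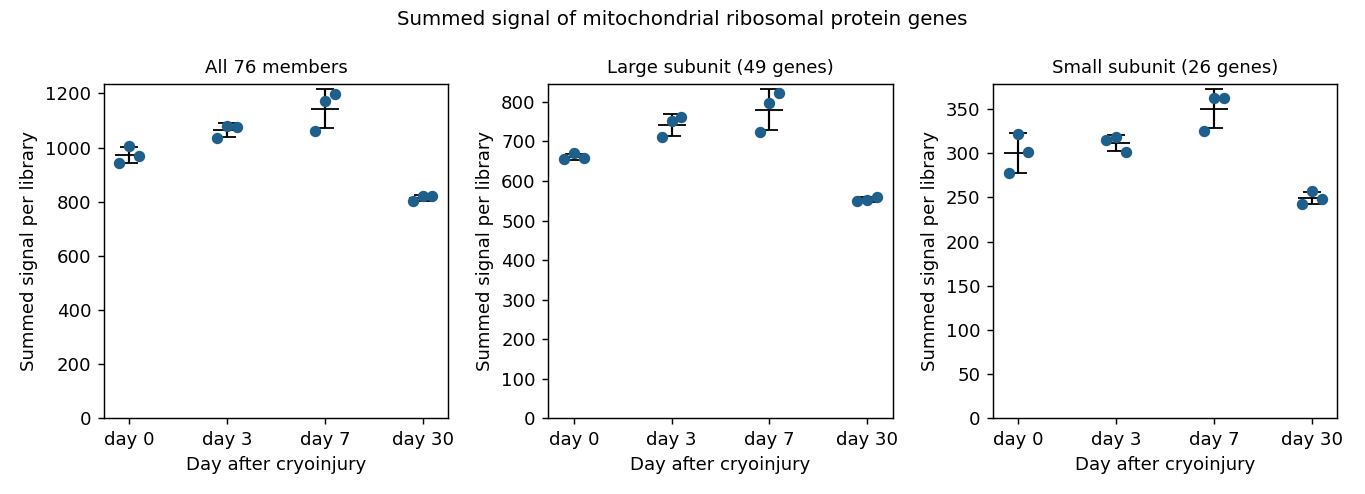
Summed signal (normalised read count) of mitochondrial ribosomal protein genes in each library at days 0, 3, 7 and 30 after cryoinjury, for all 76 genes, the 49 of the large subunit and the 26 of the small subunit. Points are libraries, the wide bar is the mean and the error bar the SD (n = 3). In all 3 panels the 3 day 30 libraries lie below every library of the other days.

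By group mean, both subunits were highest at day 7 and lowest at day 30. The 49 large-subunit genes summed to 661 ± 7.84, 742 ± 27.5, 781 ± 51.4 and 554 ± 6.44 at days 0, 3, 7 and 30. The 26 small-subunit genes summed to 300.2 ± 22.3, 312 ± 8.65, 350.2 ± 22.1 and 249 ± 7.07, and their day 3 libraries (302 to 318) overlapped those of day 0 (278 to 322). Proteins with a bacterial counterpart summed to 748 ± 19.6 at day 3, against 653 ± 16.9 at day 0, a difference larger than the spread of either group. Mitochondria-specific proteins summed to 305 ± 6.87 at day 3, against 308 ± 15.1 at day 0, which is within the spread. Per gene, the median log2 fold change at day 3 against day 0 was 0.06 in the first class and -0.07 in the second. In the first, 8 of 48 genes passed as higher and 3 as lower, and in the second 3 of 27 each way. Among all genes tested, 22.1% passed in each direction. The difference between the classes was not tested.

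Single genes differed far more in level than days did. Per kilobase of transcript, the mean signal over all libraries was highest for Mrps21 at 66.4, followed by Mrpl52 at 59.2, Mrpl30 at 48.2, Mrpl17 at 39.6 and Mrpl42 at 37.0. It was lowest for Mrpl47 at 1.54, followed by Mrps26 at 1.70, Mrps30 at 2.62, Mrpl38 at 2.71 and Mrpl19 at 2.78. The median over 75 genes was 8.29 per kilobase. The identifier of Mrpl33 was not found in GENCODE M21, so it has no length and no value per kilobase.

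By group mean, 42 of the 76 genes (55.3%) were highest at day 7, against 29% of all genes tested. At day 30, 53 of them (69.7%) were lowest, against 23% of all genes tested. In 35 genes both were so. Day 0 had the highest mean of 12 genes, day 3 of 17 and day 30 of 5. A course with its lowest mean at day 7 was rare, with 3 genes.

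**Figure D2:**
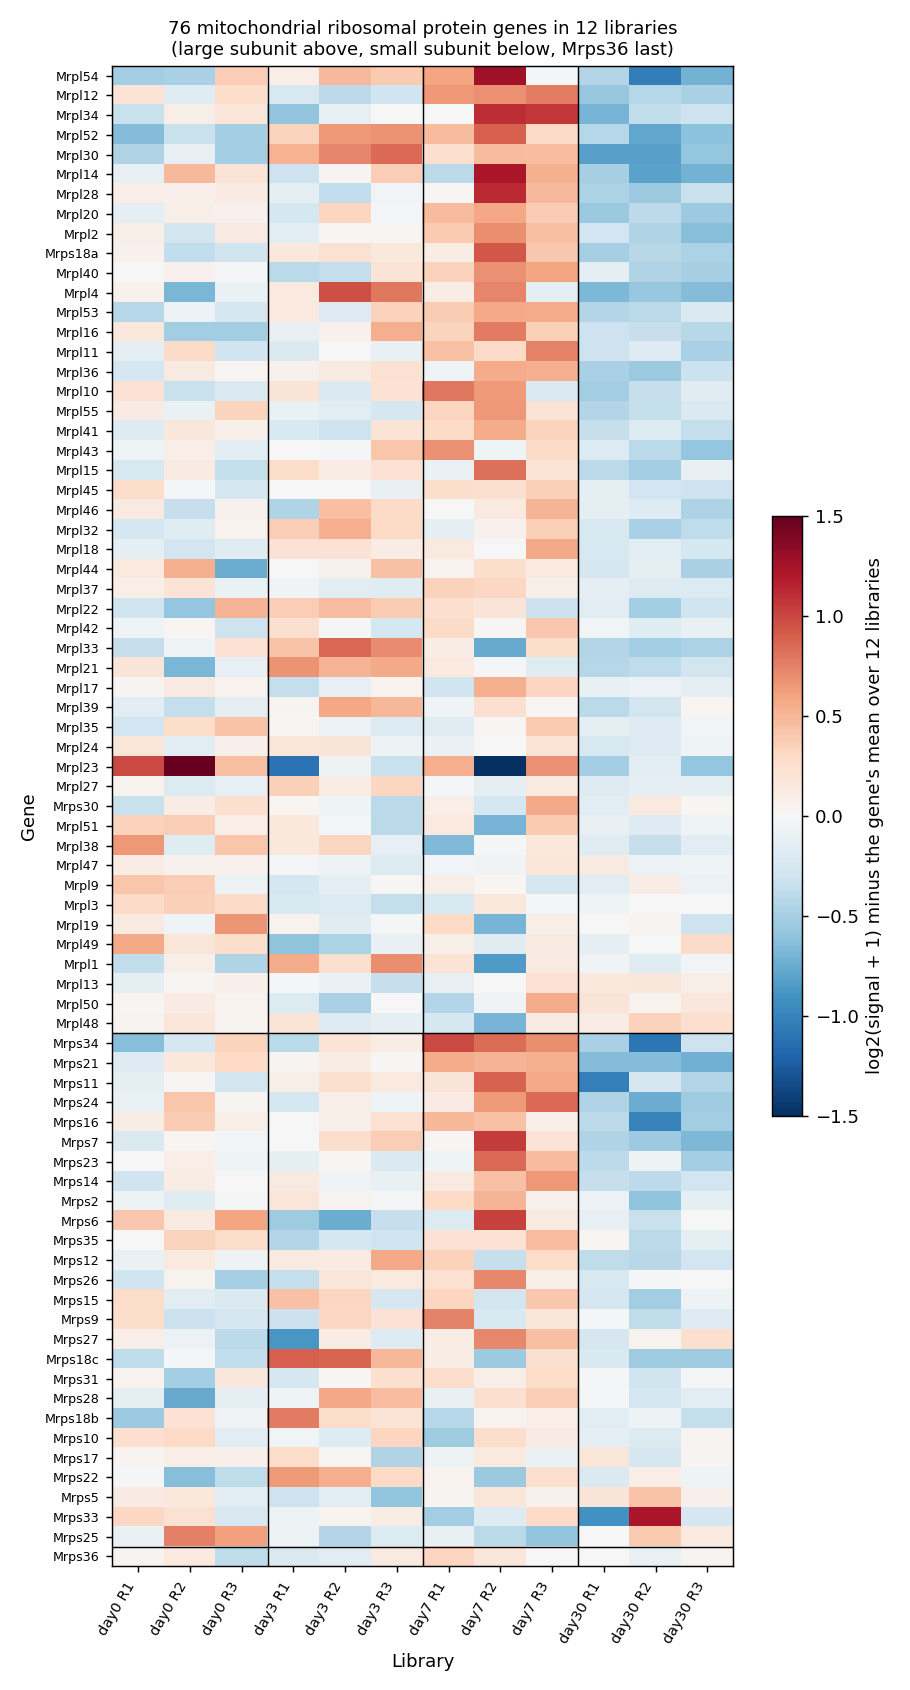
Each mitochondrial ribosomal protein gene (rows) in each of the 12 libraries (columns, by day), as log2(signal + 1) minus the gene's own mean over the 12 libraries. Rows run from the most negative to the most positive day 30 against day 7 change within the large subunit (above), the small subunit (below) and Mrps36 (last), and the day 30 columns are below the mean in most rows.

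In the test over the 4 groups, 38 of the 76 genes passed, which is 50% of them, against 63.9% of all genes tested. The 10 with the smallest p were Mrpl30, Mrpl52, Mrps21, Mrpl12, Mrps18c, Mrpl20, Mrpl4, Mrpl33, Mrps34 and Mrps16, with adjusted p between 8.34e-06 and 0.00441. The first 5 of these are described one by one, each with the bases around its start from RefSeq (GRCm38.p6, 250 before to 50 after the start, 5′ to 3′ on the gene's strand), because their changes were the clearest in the family. Capitals mark matches to the NRF1 motif (GCGC, any base, then TGCGC), the ETS motif CCGGAAG and the E-box CACGTG, searched on both strands, so that an ETS match can read CTTCCGG.

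Mrpl30 (chr1:37890227-37890526, plus strand, 1 NRF1 match): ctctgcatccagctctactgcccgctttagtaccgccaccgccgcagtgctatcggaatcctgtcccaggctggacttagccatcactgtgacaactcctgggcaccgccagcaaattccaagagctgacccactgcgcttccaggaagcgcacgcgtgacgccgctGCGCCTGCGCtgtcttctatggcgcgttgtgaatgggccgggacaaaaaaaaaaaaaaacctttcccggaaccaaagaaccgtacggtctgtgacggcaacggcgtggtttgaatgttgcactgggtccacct
Mrpl52 (chr14:54426659-54426958, plus strand, 2 ETS matches): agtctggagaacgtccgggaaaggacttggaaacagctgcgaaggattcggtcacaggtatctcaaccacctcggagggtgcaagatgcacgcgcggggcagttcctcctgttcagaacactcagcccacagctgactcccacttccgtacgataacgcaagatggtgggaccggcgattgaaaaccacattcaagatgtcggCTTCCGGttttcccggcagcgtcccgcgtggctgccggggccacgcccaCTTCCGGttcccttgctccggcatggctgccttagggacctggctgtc
Mrps21 (chr3:95871465-95871764, minus strand, 1 NRF1 and 1 ETS match): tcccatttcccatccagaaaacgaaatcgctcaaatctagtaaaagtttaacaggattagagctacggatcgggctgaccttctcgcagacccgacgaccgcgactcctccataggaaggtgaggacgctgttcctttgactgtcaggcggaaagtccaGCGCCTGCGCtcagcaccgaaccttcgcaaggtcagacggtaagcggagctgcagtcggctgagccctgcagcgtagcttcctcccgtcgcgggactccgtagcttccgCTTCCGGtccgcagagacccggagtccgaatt
Mrpl12 (chr11:120484387-120484686, plus strand, 1 NRF1 match): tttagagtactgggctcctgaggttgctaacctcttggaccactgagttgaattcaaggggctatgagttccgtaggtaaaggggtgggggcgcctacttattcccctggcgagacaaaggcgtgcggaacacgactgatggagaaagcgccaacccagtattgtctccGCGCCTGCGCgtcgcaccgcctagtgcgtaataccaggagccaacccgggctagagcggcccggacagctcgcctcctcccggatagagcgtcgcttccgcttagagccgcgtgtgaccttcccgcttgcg
Mrps18c (chr5:100798509-100798808, plus strand, 1 E-box and 1 ETS match): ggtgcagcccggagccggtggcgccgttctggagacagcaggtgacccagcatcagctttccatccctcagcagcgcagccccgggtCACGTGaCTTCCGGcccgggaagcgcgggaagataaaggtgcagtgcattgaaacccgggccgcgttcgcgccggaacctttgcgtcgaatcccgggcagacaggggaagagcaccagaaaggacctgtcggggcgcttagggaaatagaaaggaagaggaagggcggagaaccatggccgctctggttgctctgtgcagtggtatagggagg

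NRF1, the ETS factor GABP and YY1 are known to act on nuclear genes for mitochondrial proteins. Promoters of this length were found for 67 of the 76 genes, 73 promoters in all. The NRF1 motif was in 12 of them (16.4%), against 9.91% of the promoters of all genes tested. The ETS motif was in 24 (32.9%), against 17.5%, and the YY1 motif AANATGGCG in 10 (13.7%), against 5.11%. The E-box was in 7 (9.59%), against 9.91%. Over all 32851 promoters in the RefSeq table the shares were 4.6% for NRF1, 8.86% for ETS, 2.38% for YY1 and 7.15% for the E-box. The ETS motif stood in 28.1% of the 32 promoters of genes that were lower at day 30 than at day 7 and in 36.6% of the other 41. The E-box was in 6 of those 32 promoters and in 1 of the other 41. A match is a match of letters and shows no binding, and these shares were not tested.

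Mrpl30, a large-subunit protein with a bacterial counterpart, was high at days 3 and 7. Its signal was 21.1, 26.8 and 20.3 at day 0, 42.6, 49.3 and 53.5 at day 3, 35.1, 41.3 and 40.9 at day 7, and 16.2, 16.3 and 19.2 at day 30. All 6 libraries of days 3 and 7 lay above all 6 of days 0 and 30. The change was 1.06 ± 0.16 at day 3 against day 0 (adjusted p = 7.5e-05), 0.76 ± 0.16 at day 7 against day 0 (adjusted p = 0.00398) and -1.14 ± 0.16 at day 30 against day 7 (adjusted p = 0.000154). At day 30 against day 0 it was -0.38 ± 0.16 and did not pass (adjusted p = 0.186).

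Mrpl52, a mitochondria-specific protein of the large subunit, followed the same course. Its signal was 14.1, 17.8 and 15.8 at day 0, 29.0, 36.4 and 36.9 at day 3, 31.9, 43.1 and 28 at day 7, and 16.6, 12.9 and 14.6 at day 30. Again the libraries of days 3 and 7 lay above all others. The change was 1.05 ± 0.19 at day 3 against day 0 (adjusted p = 0.000316), 1.05 ± 0.19 at day 7 against day 0 (adjusted p = 0.00116) and -1.16 ± 0.19 at day 30 against day 7 (adjusted p = 0.000372).

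Mrps21, the counterpart of a small protein of the bacterial small subunit, was high at day 7 alone. Its signal was 22.3, 28.7 and 31.7 at day 0, 26.3, 27.7 and 26.1 at day 3, 38.2, 36.9 and 37.5 at day 7, and 16, 16 and 15.2 at day 30. Every day 7 library was above, and every day 30 library below, all libraries of days 0 and 3. It rose by 0.48 ± 0.15 at day 7 against day 3 (adjusted p = 0.0204), but did not pass at day 7 against day 0. The change was -1.20 ± 0.15 at day 30 against day 7 (adjusted p = 7.6e-05) and -0.76 ± 0.15 at day 30 against day 0 (adjusted p = 0.00978).

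Mrpl12 is the counterpart of the bacterial stalk protein that recruits translation factors, and in human cells it also binds the mitochondrial RNA polymerase. Its signal was 10.2, 7.55 and 10.7 at day 0, 7.19, 6.38 and 6.88 at day 3, 14.2, 14.6 and 15.5 at day 7, and 5.54, 6.22 and 5.89 at day 30. Day 7 was above and days 3 and 30 below all day 0 libraries. It rose by 1.01 ± 0.19 at day 7 against day 3 (adjusted p = 0.000508) and by 0.60 ± 0.19 at day 7 against day 0 (adjusted p = 0.0328), and was -1.20 ± 0.19 at day 30 against day 7 (adjusted p = 0.000301). The exons of Mrpl12 overlap those of Gm16755 on the other strand.

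Mrps18c is 1 of 3 mammalian relatives of a single bacterial protein and sits in the small subunit. Its signal was 13.6, 17.6 and 13.8 at day 0, 34.4, 33.9 and 25.9 at day 3, 19.5, 12 and 21.5 at day 7, and 15.2, 12.2 and 12.2 at day 30. The day 3 libraries lay above all others. The change was 1.02 ± 0.22 at day 3 against day 0 (adjusted p = 0.00135) and -0.82 ± 0.22 at day 7 against day 3 (adjusted p = 0.00602). Of its relatives, Mrps18a, which sits in the large subunit, had another course and was highest at day 7. Mrps18b also had its highest mean at day 3, but passed in no comparison.

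**Figure D3:**
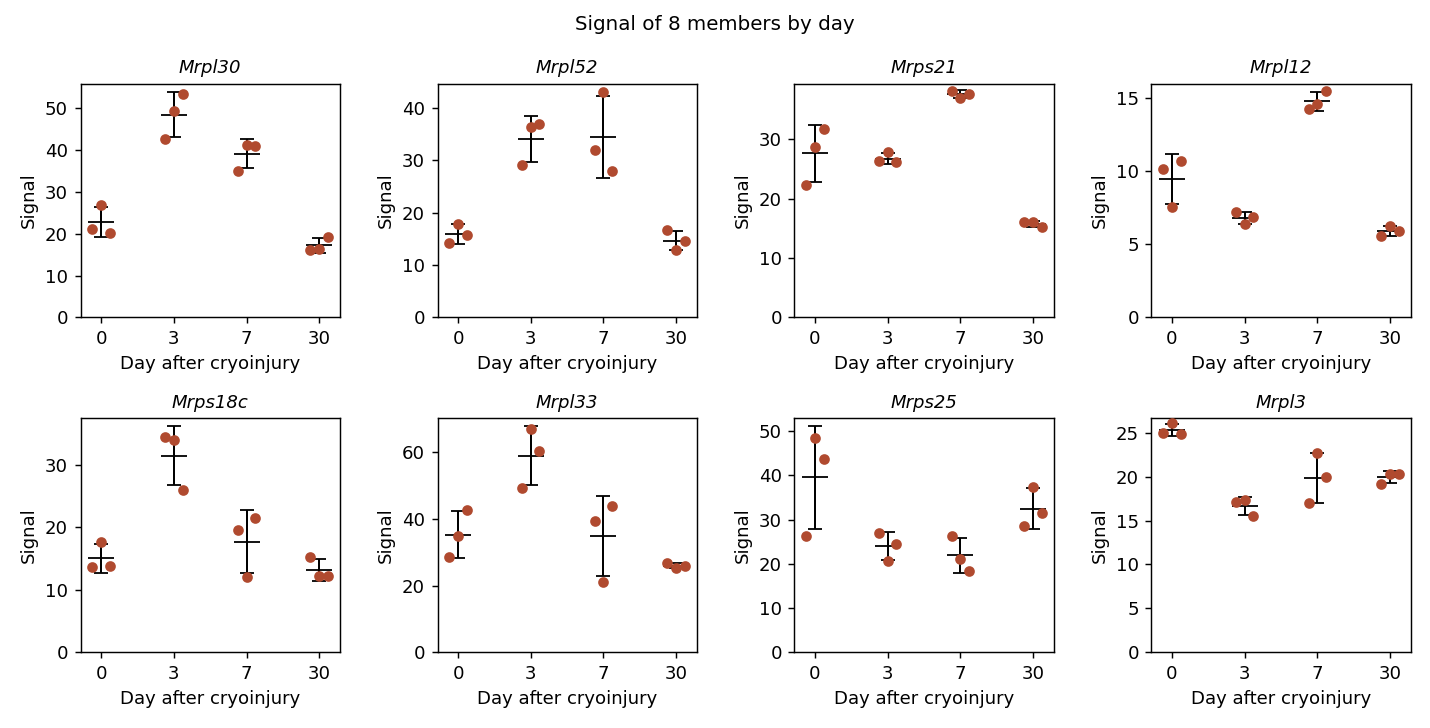
Signal (normalised read count, linear axis from 0) of 8 mitochondrial ribosomal protein genes in each library at days 0, 3, 7 and 30 after cryoinjury. Points are libraries, the wide bar is the mean and the error bar the SD (n = 3). Mrpl30 and Mrpl52 are high at days 3 and 7, Mrps21 and Mrpl12 at day 7, Mrps18c and Mrpl33 at day 3, and Mrps25 and Mrpl3 at day 0.

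Day 30 against day 7 compares cells of 1 gate late and early in healing and showed the widest change. Of the 76 genes, 33 were lower at day 30 and 1 was higher, against 19.9% lower and 19.7% higher among all genes tested, or 39.6% in either direction. The median change was -0.44, against 0.01 over all genes tested, and 64 of the 76 changes were below 0. In 40 genes every day 30 library was below every day 7 library, a state that 27.6% of all genes tested shared. Taking the 3 day 30 libraries as 1 sample left 4 lower genes, Mrps21, Mrpl12, Mrpl52 and Mrpl30.

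**Figure D4:**
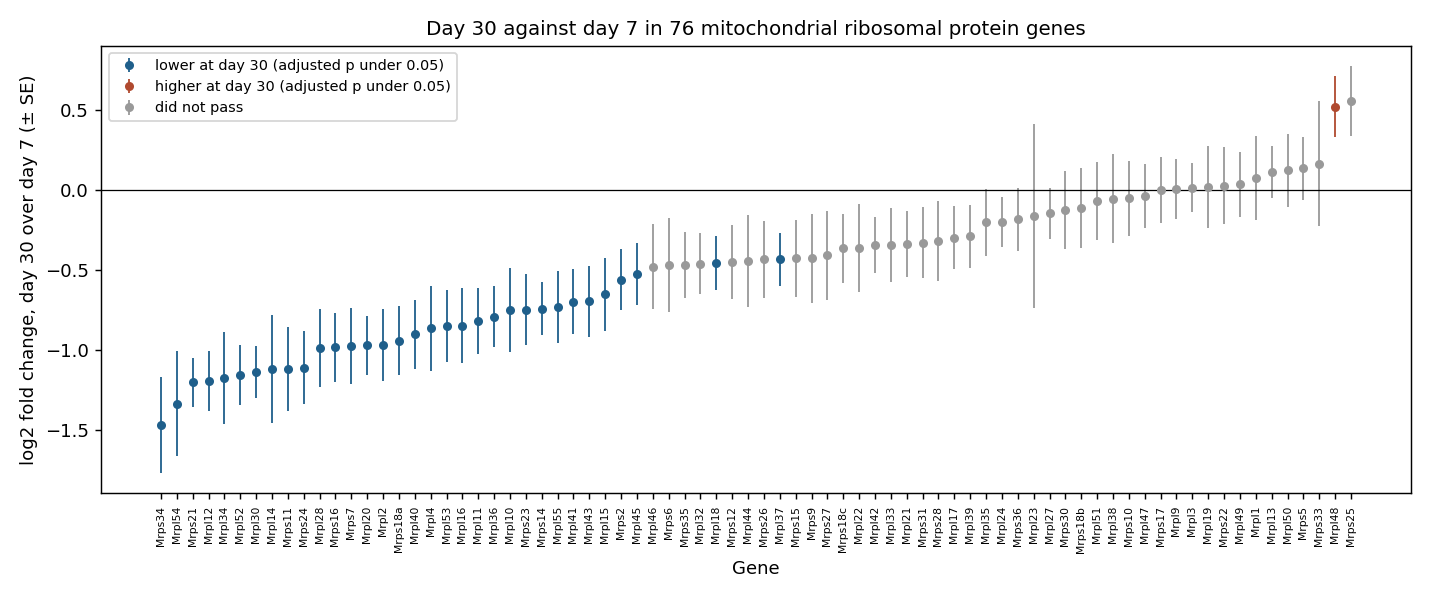
Change of each of the 76 genes at day 30 against day 7, as log2 fold change of signal + 1 with its SE (n = 3 against 3), ordered by size. Of the genes, 33 pass as lower (blue), 1, Mrpl48, passes as higher (red), and the other 42 do not pass (grey).

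After Mrps21, Mrpl12, Mrpl52 and Mrpl30, the largest falls among genes that passed were those of Mrps34, Mrpl54, Mrpl34, Mrpl14, Mrps11 and Mrps24. Mrps34, a mitochondria-specific protein of the small subunit whose human gene is mutated in a respiratory chain disease, had a signal of 2.03, 0.989 and 2.41 at day 30, against 7.42, 6.59 and 5.84 at day 7. It fell by 1.47 on the log2 scale (SE 0.30, adjusted p = 0.00165). Mrpl54 had 3.51, 1.98 and 2.73 at day 30, against 8.18, 13.8 and 4.97 at day 7, and fell by 1.34 (SE 0.33, adjusted p = 0.00532). Both were low genes, for which a few reads matter.

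Mrpl34, whose bacterial counterpart is among the smallest ribosomal proteins, had 4.29, 5.65 and 5.89 at day 30, against 7.57, 17.5 and 16.8 at day 7 (-1.18 ± 0.29, adjusted p = 0.00545). Mrpl14 had 4.06, 3.11 and 3.36 at day 30, against 4.39, 15.7 and 9.35 at day 7 (-1.12 ± 0.34, adjusted p = 0.0163), with its lowest day 7 library just above its highest day 30 library. The small-subunit genes Mrps11 (-1.12 ± 0.26, adjusted p = 0.00383) and Mrps24 (-1.11 ± 0.23, adjusted p = 0.0018) were lower in every day 30 library than in any day 7 library. The exons of Mrps34, Mrpl14, Mrps11 and Mrps24 overlap those of neighbouring genes, Nme3 and Mapk8ip3, Tmem63b, Mrpl46, and Urgcp.

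The other genes that passed as lower were Mrpl28, Mrps16, Mrps7, Mrpl20, Mrpl2, Mrps18a, Mrpl40, Mrpl4, Mrpl53, Mrpl16, Mrpl11, Mrpl36, Mrpl10, Mrps23, Mrps14, Mrpl55, Mrpl41, Mrpl43, Mrpl15, Mrps2, Mrpl45, Mrpl18 and Mrpl37, with changes of -0.99 to -0.43. Among them, Mrpl2 is a counterpart of a bacterial protein at the peptidyl transferase centre and Mrpl45 helps hold the ribosome to the inner membrane. Mrpl2 had 3.12, 2.69 and 2.22 at day 30, against 5.6, 7.17 and 5.84 at day 7 (-0.97 ± 0.22, adjusted p = 0.00368). Mrps7 had 8.03, 7.49 and 6.78 at day 30, against 11.5, 24.5 and 13.3 at day 7 (-0.98 ± 0.24, adjusted p = 0.00542). Its exons overlap those of Gga3 and Mif4gd. Mrpl11, at the site where translation factors bind, had 8.27, 9.05 and 7.23 at day 30, against 14.5, 13.1 and 18.3 at day 7 (-0.82 ± 0.21, adjusted p = 0.0062). Mrpl45 was near the threshold at -0.53 ± 0.20 (adjusted p = 0.0431).

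Mrpl48 was the 1 gene that passed as higher, with 34.0, 40.3 and 37.5 at day 30, against 25.9, 19 and 34.2 at day 7 (0.52 ± 0.19, adjusted p = 0.0435). Its groups overlapped, and the call was lost without any 1 of 9 libraries. Its exons overlap those of Rab6a. Of the 34 calls, 21 held with each library left out in turn. With day 0 library 1 and day 7 library 2 both left out, 30 were lower and 1 higher.

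At day 30 against day 7, 24 of the 49 large-subunit genes and 9 of the 26 small-subunit genes passed as lower, with medians of -0.46 and -0.43. Among proteins with a bacterial counterpart 23 of 48 passed as lower, and among mitochondria-specific ones 10 of 27, with medians of -0.46 and -0.43. These differences between classes were not tested. Mrps36, which is found in the alpha-ketoglutarate dehydrogenase complex rather than in the ribosome, passed in no comparison, with a signal of 11.2 ± 0.578 at day 30, against 13 ± 1.57 at day 7.

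Base composition moved with this comparison. Across the 75 genes with an annotated length, the day 30 against day 7 change had a Spearman rank correlation of -0.57 with the GC content of the transcripts and of 0.40 with their length. Over all 12714 genes with these values the correlations were -0.52 and 0.21, so the trend was one of the libraries as a whole. The genes that passed as lower had a median GC content of 53.97%, against 49.16% for those that did not pass. With the trends on GC content and length taken out of each library, a calculation chosen after seeing the data, 22 genes passed as lower and 1 as higher, and 16 of these 23 were among the 34. The median was then -0.42, with 62 of 76 changes below 0. The genes share libraries and depth, and what lies behind the trend was not tested.

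**Figure D5:**
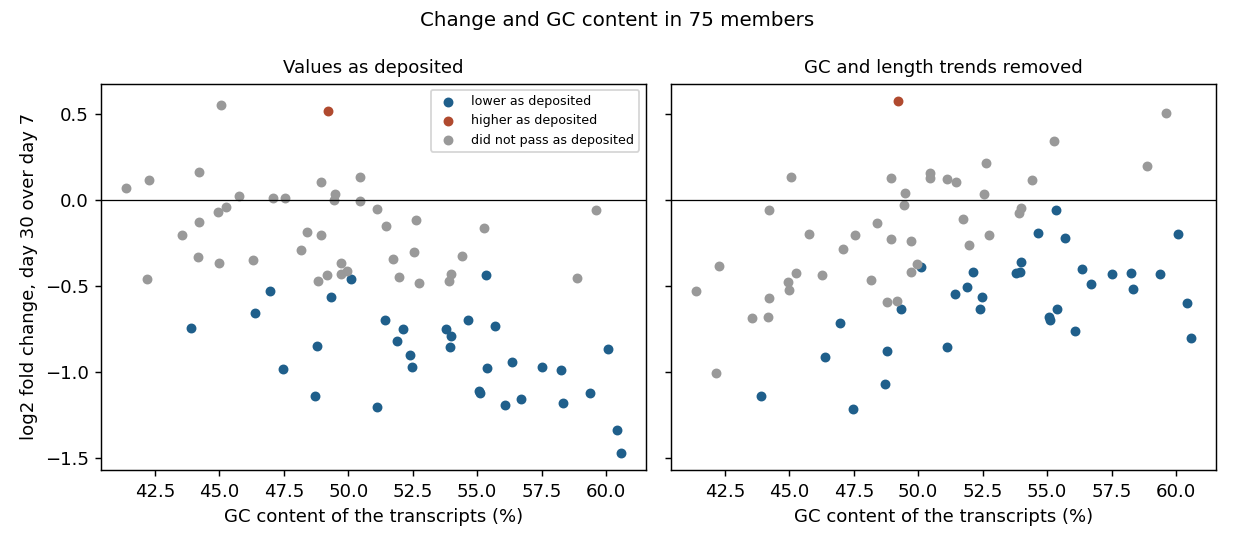
Change of 75 mitochondrial ribosomal protein genes at day 30 against day 7 (log2 fold change of signal + 1) against the GC content of their transcripts in percent, for the values as deposited (left) and after trends on GC content and length were removed from each library (right). Colours mark the calls on the values as deposited in both panels. On the left the changes fall with GC content. On the right, where no correlation was computed, most changes still lie below 0.

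Among the genes above, Mrps21 (-0.85, adjusted p = 0.0003), Mrpl30 (-1.07, adjusted p = 0.0002), Mrpl12 (-0.76, adjusted p = 0.0071) and Mrpl52 (-0.49, adjusted p = 0.0167) still passed with these trends removed. The GC-rich Mrps34 (-0.81, adjusted p = 0.0558), Mrpl54 (-0.60, adjusted p = 0.101), Mrpl34 (-0.51, adjusted p = 0.138) and Mrpl2 (-0.43, adjusted p = 0.125) no longer did. Mrps14, a counterpart of a bacterial small-subunit protein, changed more with the trends removed (-1.14, adjusted p = 0.0002) than without (-0.74 ± 0.17, adjusted p = 0.00302). Mrpl32, which a protease must trim before it can join the ribosome, passed only with them removed (-1.01, adjusted p = 0.0014, against -0.46 ± 0.19 and adjusted p = 0.0622).

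At day 7 against day 0, within 1 gate, 7 of the 76 genes were higher and 1 was lower, against 11.4% higher and 10.2% lower among all genes tested, or 21.6% in either direction. Mrpl52, Mrps34, Mrpl16, Mrpl30, Mrpl53, Mrps18a and Mrpl12 were higher and Mrps25 lower. The median change was 0.27, against -0.02 over all genes tested, and 59 of the 76 changes were above 0. In 21 genes every day 7 library was above every day 0 library, against 16.5% of all genes tested.

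Mrps34 had 7.42, 6.59 and 5.84 at day 7, against 1.72, 2.52 and 4.35 at day 0 (1.03 ± 0.30, adjusted p = 0.0236). Mrpl16, a counterpart of a bacterial protein near the transfer RNA sites, had 16.2, 22.4 and 16.5 at day 7, against 14.3, 8.49 and 8.51 at day 0 (0.79 ± 0.23, adjusted p = 0.0266). Mrpl53 had 5.6, 6.47 and 6.43 at day 7, against 2.77, 3.77 and 3.26 at day 0 (0.75 ± 0.22, adjusted p = 0.027). In all 3 genes the groups did not overlap. Mrps18a had 11.8, 21.6 and 14.8 at day 7, against 11.5, 8.18 and 8.69 at day 0, with its lowest day 7 library just above its highest day 0 library (0.68 ± 0.22, adjusted p = 0.0354).

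Mrps25, a mitochondria-specific protein of the small subunit, went the other way. It had 26.2, 21.2 and 18.4 at day 7, against 26.4, 48.5 and 43.8 at day 0 (-0.79 ± 0.22, adjusted p = 0.018). The first day 0 library lay just above the day 7 libraries and far below the other day 0 libraries. The exons of Mrps25 overlap those of Nr2c2 on the other strand. Of the 8 calls, those of Mrpl30 and Mrpl52 held with each library left out in turn. Without the first day 7 library 16 genes passed, without the second day 0 library 4, and with day 30 taken as 1 sample 4. Over the 75 genes the change had a Spearman rank correlation of 0.40 with GC content, and over all 12714 genes 0.38. With GC and length trends removed 5 genes were higher and 2 lower, and 4 of these were among the 8, Mrpl16, Mrpl30, Mrpl52 and Mrps25. Mrps34, Mrpl53, Mrps18a and Mrpl12 no longer passed, with adjusted p of 0.152, 0.0779, 0.123 and 0.216.

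At day 3 against day 0, 11 of the 76 genes were higher and 6 lower. Together they were 22.4% of the family, against 44.2% of all genes tested, of which 22.1% passed in each direction. The median change was -0.00, against -0.02 over all genes tested, and 38 changes lay on either side of 0. Mrpl30, Mrpl52, Mrps18c, Mrpl4, Mrps22, Mrpl21, Mrpl1, Mrpl33, Mrps28, Mrpl39 and Mrpl32 were higher. Mrpl23, Mrps6, Mrpl49, Mrps25, Mrpl3 and Mrps35 were lower. Counts of genes whose groups did not overlap were 15 higher and 9 lower, against 27.9% and 27.5% of all genes tested, or 55.4% in either direction.

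Mrpl4 had 17, 30.7 and 26.9 at day 3, against 15.8, 9.02 and 14.1 at day 0 (0.88 ± 0.26, adjusted p = 0.0137). Mrps22, whose human gene is mutated in an oxidative phosphorylation deficiency, had 12.4, 11.6 and 9.53 at day 3, against 7.39, 4.51 and 5.61 at day 0 (0.84 ± 0.24, adjusted p = 0.0105). Mrpl21 had 27.2, 24.2 and 25.2 at day 3, against 19.1, 9.96 and 15.2 at day 0 (0.79 ± 0.21, adjusted p = 0.00561). In each of these genes every day 3 library was above every day 0 library, and the exons of Mrpl21 overlap those of Ighmbp2.

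Mrpl1, part of the mobile stalk on the side where transfer RNAs leave, had 16.7, 13.1 and 18.4 at day 3, against 8.32, 11.7 and 7.79 at day 0 (0.74 ± 0.26, adjusted p = 0.0332). Mrpl33 had 49.3, 66.9 and 60.4 at day 3, against 28.5, 34.8 and 42.6 at day 0 (0.73 ± 0.23, adjusted p = 0.0184). Mrps28 changed by 0.67 ± 0.25 (adjusted p = 0.0401), Mrpl39 by 0.59 ± 0.20 (adjusted p = 0.0237) and Mrpl32 by 0.54 ± 0.19 (adjusted p = 0.0304). These 5 calls were each lost without 1 or more single libraries.

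Of the genes that were lower, Mrpl49 had 7.57, 8.38 and 11.1 at day 3, against 18.3, 13.8 and 14.7 at day 0 (-0.74 ± 0.20, adjusted p = 0.00815). Mrpl3, a counterpart of a bacterial large-subunit protein whose human gene is mutated in an oxidative phosphorylation deficiency, had 17.1, 17.4 and 15.5 at day 3, against 24.9, 26.1 and 24.8 at day 0 (-0.57 ± 0.16, adjusted p = 0.00738). Both calls held with each library left out in turn. The exons of Mrpl49 overlap those of Syvn1, and those of Mrpl3 overlap Gm38077 and Gm47106.

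Mrps6 had 2.20, 1.77 and 2.65 at day 3, against 5.15, 4.09 and 5.98 at day 0 (-0.92 ± 0.29, adjusted p = 0.0192), and its exons overlap those of Slc5a3 on the same strand. Mrps25 had 26.9, 20.7 and 24.5 at day 3, against 26.4, 48.5 and 43.8 at day 0, with overlapping groups (-0.66 ± 0.22, adjusted p = 0.0223). Mrps35 was near the threshold at -0.54 ± 0.21 (adjusted p = 0.0474). Of the 17 calls, 6 held with each library left out in turn, those of Mrpl30, Mrpl52, Mrps18c, Mrpl21, Mrpl49 and Mrpl3. Without the second or the third day 3 library 9 genes passed each time, and without the second day 0 library 11.

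Mrpl23, near the exit of the peptide tunnel, has a pseudogene copy, Mrpl23-ps1, with a row of its own in the table. Reads of such copies could be divided between the rows, which was not tested, and the call of Mrpl23 is uncertain. Mrpl23 had 1.05, 3.19 and 2.52 at day 3, against 7.79, 17.5 and 5.07 at day 0 (-1.68 ± 0.57, adjusted p = 0.027). The share of the pair's signal placed on Mrpl23 ran from 0.365% in the second day 7 library to 86.5% in the second day 0 library. The Mrpl23-ps1 row alone had 9.96, 9.68 and 6.62 at day 3 and 7.56, 7.91 and 8.43 at day 30. Relative to its mean, the sum of both rows varied less within groups than Mrpl23 did. At days 3 and 30 it varied about as little as Mrpl23-ps1 alone. The sum was 16, 20.2 and 16.8 at day 0, 11, 12.9 and 9.13 at day 3, 23.9, 31.7 and 25.6 at day 7, and 9.67, 10.9 and 10.4 at day 30.

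Summed in this way, a calculation chosen after seeing the data, the pair did not overlap between any 2 of the groups compared. Its change was -0.64 ± 0.18 at day 3 against day 0 (adjusted p = 0.01), 0.58 ± 0.18 at day 7 against day 0 (adjusted p = 0.0341) and -0.72 ± 0.18 at day 30 against day 0 (adjusted p = 0.0317). It was 1.23 ± 0.18 at day 7 against day 3 (adjusted p = 8.0e-05) and -1.30 ± 0.18 at day 30 against day 7 (adjusted p = 0.00014). Which of the pair the RNA came from cannot be told apart.

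At day 7 against day 3, where the gate changes too, 11 of the 76 genes were higher and 3 lower, against 23.3% higher and 23.5% lower among all genes tested, or 46.8% in either direction. The higher ones were Mrpl12, Mrpl34, Mrps34, Mrps6, Mrps27, Mrpl28, Mrpl40, Mrps35, Mrps24, Mrpl11 and Mrps21, and the lower ones Mrps18c, Mrpl33 and Mrpl21. The median change was 0.21, against 0.04 over all genes tested, with 52 changes above 0. Groups did not overlap in 26 genes, against 50.9% of all genes tested. The balance of the calls depended on the scaling: median centring gave 7 higher and 5 lower, and quantile normalisation 4 higher and 5 lower. With GC and length trends removed it was 10 higher and 8 lower, and 8 of these 18 were among the 14. Mrpl34, Mrps34, Mrps6, Mrpl28, Mrps24 and Mrpl11 no longer passed.

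After Mrpl12, the largest rise was that of Mrpl34, with 7.57, 17.5 and 16.8 at day 7, against 4.69, 6.85 and 7.55 at day 3 (0.96 ± 0.29, adjusted p = 0.0132). Mrps34 changed by 0.87 ± 0.30 (adjusted p = 0.0265), Mrpl28 by 0.73 ± 0.25 (adjusted p = 0.0243) and Mrpl40 by 0.72 ± 0.22 (adjusted p = 0.013), with groups that did not overlap. Mrps27, a protein with the repeat fold of RNA-binding proteins, had 5.30, 8.67 and 7.01 at day 7, against 2.20, 5.31 and 4.10 at day 3, with the lowest day 7 library just below the highest day 3 library (0.75 ± 0.28, adjusted p = 0.0393). Mrps6 had 3.03, 8.44 and 4.09 at day 7, against 2.20, 1.77 and 2.65 at day 3 (0.86 ± 0.29, adjusted p = 0.0257), a rise that ended without the second day 7 library and without the first or the second day 3 library.

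Mrpl33 had 39.4, 21.2 and 43.8 at day 7, against 49.3, 66.9 and 60.4 at day 3, with every day 7 library lower (-0.80 ± 0.23, adjusted p = 0.0111). Mrpl21 had 18.5, 16.4 and 14.6 at day 7, against 27.2, 24.2 and 25.2 at day 3 (-0.60 ± 0.21, adjusted p = 0.0253). The calls of Mrpl12, Mrps18c and Mrpl33 held with each library left out in turn, and the other 11 did not. Without the first day 3 library 6 genes passed.

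At day 30 against day 0, uninjured hearts were set against hearts long after injury, within 1 gate. No gene was higher and 2 were lower, Mrps16 and Mrps21, against 3.45% higher and 2.73% lower among all genes tested, or 6.18% in either direction. Mrps16, whose human gene is mutated in a respiratory chain deficiency, had 5.93, 3.53 and 5.32 at day 30, against 8.84, 10.8 and 8.69 at day 0 (-0.83 ± 0.22, adjusted p = 0.0329). The median change of the 76 genes was -0.25, against -0.01 over all genes tested, and 64 changes were below 0. In 25 genes every day 30 library was below every day 0 library, against 20.3% of all genes tested, and in 1 gene above, against 20.5%.

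These 2 calls depended on the libraries and the fit. Both were lost without the second or the third day 0 library and without the second or the third day 30 library, and with day 30 taken as 1 sample none passed. Without the first day 30 library 1 gene passed, and without the second day 7 library 6. With day 0 library 1 and day 7 library 2 left out, 8 genes passed as lower. At an unadjusted p under 0.05, 10 of the 76 genes passed. The share of all genes tested at that threshold is not given here, so this count cannot be set against it. On the reads recovered from the signal, 2 passed with edgeR and 4 with DESeq2.

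Over the 5 comparisons 27 genes passed in none, 28 in 1, 16 in 2 and 5 in 3. Among those that passed in none, Mrps5, a counterpart of a bacterial protein at the entry of the messenger RNA, had group means of 9.21 ± 1.24, 6.78 ± 1.13, 9.62 ± 0.578 and 10.7 ± 1.45 at days 0, 3, 7 and 30. Mrps12, a counterpart of a bacterial protein of the decoding centre, had 6.70 ± 0.741, 8.46 ± 1.73, 7.40 ± 2.01 and 5.01 ± 0.274. Mrpl44, related to RNA-cutting enzymes, had 5.21 ± 2.52, 5.70 ± 1.15, 5.61 ± 0.492 and 3.86 ± 0.583. Mrps30, which was first described as a cell death protein and sits in the large subunit, had 8.75 ± 1.93, 7.70 ± 1.31, 9.77 ± 3.1 and 8.62 ± 1.02. Mrps18b had 6.14 ± 1.83, 9.38 ± 2.34, 6.26 ± 1.36 and 5.64 ± 0.647. A p above the threshold does not show that these levels were equal.

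In 31 of the 76 genes an exon overlaps that of another gene in GENCODE M21, in 27 on the other strand and in 7 on the same strand. Whether the authors' counting used the strand is not given in the sources used here, so reads of such pairs may be mixed, and the values of these genes carry that doubt.

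The other subunits of the mitochondrial ribosome, which carry other names, behaved as follows. Of 6 such genes, 3 were lower at day 30 than at day 7 and none higher, against 19.9% lower and 19.7% higher among all genes tested. Aurkaip1 had 11.9 ± 1.22 at day 30, against 31.9 ± 9.73 at day 7 (-1.30 ± 0.24, adjusted p = 0.000948). Ict1, a subunit that can free stalled peptides, had 5.40 ± 0.105 at day 30, against 10.6 ± 1.98 at day 7 (-0.84 ± 0.20, adjusted p = 0.00524). Chchd1 changed by -0.67 ± 0.21 (adjusted p = 0.0211). Dap3, Ptcd3 and Gadd45gip1 did not pass. At day 7 against day 0, Aurkaip1 was higher (0.81 ± 0.24, adjusted p = 0.0276), and in the other 3 comparisons none of the 6 passed.

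Of 15 mitochondrial translation factors, 4 were higher at day 7 than at day 3 and none lower, against 23.3% higher and 23.5% lower among all genes tested, so the share of higher ones is near that of all genes. They were 2810006K23Rik (1.31 ± 0.34, adjusted p = 0.00534), the elongation factor Tufm (0.78 ± 0.25, adjusted p = 0.0197), the initiation factor Mtif3 (0.72 ± 0.25, adjusted p = 0.0298) and Oxa1l, which inserts new proteins into the inner membrane (0.66 ± 0.19, adjusted p = 0.0118). At day 30 against day 7, 3 were lower, 2810006K23Rik (-0.95 ± 0.34, adjusted p = 0.0369), the recycling factor Mrrf (-0.74 ± 0.22, adjusted p = 0.0177) and Oxa1l (-0.63 ± 0.19, adjusted p = 0.0181), and Guf1 was higher (0.62 ± 0.18, adjusted p = 0.0151). Among all genes tested, 19.9% were lower and 19.7% higher there. At day 3 against day 0, Mtfmt (0.60 ± 0.19, adjusted p = 0.0178) and Gfm1 (0.48 ± 0.17, adjusted p = 0.0324) were higher, at day 7 against day 0 Mtrf1 was (1.05 ± 0.32, adjusted p = 0.0305), and at day 30 against day 0 none of the 15 passed. Among all genes tested, 22.1% were higher at day 3 and 11.4% at day 7, each against day 0.

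Of 25 tested genes for assembly of the ribosome and maturation of its RNA, 3 were higher and 5 lower at day 3 than at day 0, no larger a share than the 22.1% of all genes tested in each direction. Trmt61b, which methylates mitochondrial RNA, had 9.28 ± 0.223 at day 3, against 2.86 ± 0.705 at day 0 (1.43 ± 0.21, adjusted p = 5.8e-05), and Rpusd4, a pseudouridine synthase, had 3.62 ± 0.485 at day 3, against 9.26 ± 1.2 at day 0 (-1.15 ± 0.21, adjusted p = 0.000338). Rbfa, which helps mature the small subunit, had 6.67 ± 0.223 at day 30, against 17.2 ± 3.04 at day 7 (-1.23 ± 0.20, adjusted p = 0.000348), and Mterfd1, of the mitochondrial termination factor family, had 37.4 ± 0.973 at day 30, against 18.1 ± 4.65 at day 7 (1.04 ± 0.20, adjusted p = 0.0012). In that comparison 2 of the 25 were higher and 3 lower, against 19.7% and 19.9% of all genes tested. At day 7 against day 3 it was 4 higher and 2 lower, against 23.3% and 23.5%. At day 7 against day 0 it was 1 and 2, against 11.4% and 10.2%, and at day 30 against day 0 none passed.

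The 13 proteins encoded by mitochondrial DNA, the products of this ribosome, had another course at the level of RNA. At day 3 against day 0 all 13 were lower, with a median change of -1.41, against 22.1% of all genes tested and a median of -0.02. At day 7 against day 0, 9 were lower, against 10.2% of all genes tested. The 13 summed to 24446, 47905 and 45649 in the day 0 libraries and to 19365 to 24128 at day 7. The first day 0 library, which stood apart from its partners, thus lay just above the day 7 range. At day 7 against day 3, 7 were higher, against 23.3%, and at day 30 against day 0, 2 were lower, against 2.73%. At day 30 against day 7, 4 were higher, against 19.7%, with a median change of 0.31 over the 13. mt-Nd4 had 2048 ± 88.6 at day 30, against 1192 ± 234 at day 7 (0.80 ± 0.24, adjusted p = 0.0157), in the comparison in which 33 ribosomal protein genes were lower. In that comparison the changes of all 12714 genes with a known GC content had a rank correlation of -0.52 with it. Values with this trend removed are not given for the 13. The ribosomal RNAs mt-Rnr1 and mt-Rnr2 passed in no comparison.

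Markers of other cell types differed between the groups too, beginning with those of cardiomyocytes. All 11 measured markers were lower at day 3 than at day 0, against 22.1% of all genes tested. At day 30 against day 7, 8 of the 11 were lower, against 19.9% of all genes tested. Their summed signal was 87.5 to 403 at day 0, 12.3 to 18.1 at day 3, 86.6 to 218 at day 7 and 26.9 to 27.7 at day 30. The 8 fibroblast markers summed to 45.9 to 127 at day 0, 290 to 387 at day 3, 572 to 2213 at day 7 and 175 to 184 at day 30, with 6 of the 8 lower at day 30 than at day 7. The 6 endothelium markers summed to 11.5 to 121 at day 0, 88.7 to 131 at day 3, 42.4 to 125 at day 7 and 21.2 to 24.1 at day 30. Of the 6, 3 were lower at day 30 than at day 7. At day 3 against day 0, all 5 tested T and NK cell markers and 3 of 4 tested erythroid markers were lower, and 2 of 4 tested neutrophil markers were higher. The share of all genes tested was 22.1% in each direction. All 4 neutrophil markers were lower at day 7 than at day 3, against 23.5% of all genes tested. The summed signal of the T and NK cell markers was 12.8 to 63.2 at day 0, 1.53 to 7.09 at day 3, 6.36 to 25.9 at day 7 and 6.47 to 8.66 at day 30. The neutrophil markers summed to 53.1 to 97.6, 185 to 242, 97.8 to 152 and 60.2 to 64.4 on these days, and the erythroid markers to 15.7 to 139, 3.31 to 23.8, 19.7 to 60.7 and 18.9 to 23.6. None of these sums was at 0, and their part in the changes above was not tested. With day 7 library 2, which held the 2213, and day 0 library 1 left out, the day 30 against day 7 median was -0.49.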

How the data were processed

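RNA was sequenced in 12 libraries. Per the submitters' processing notes, the build was GRCm38 and the tools were RSEM 1.2.20, edgeR 3.14.0 and cutadapt 1.3. The deposited table gives each gene a normalised signal (linear) and, per the file headers, a second block of log2 values, which the authors deposited and which were not used in the tests. The deposited signal was in whole multiples of 1 read: 100% of values were whole within 0.02 reads, which gave the depths. The intervals these depths allow cover counting error only.

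Log2(signal + 1) was fitted in limma 3.58.1 (R 4.3.3) with 4 group means over all 12 libraries and a trended prior, for the 12879 genes whose mean signal reached 1. Tests were two-sided, with Benjamini-Hochberg adjustment over those genes in each comparison and a threshold of 0.05. The fit was tested on simulated data. With 3 against 3 an exact permutation test cannot go below p = 0.1, so single genes rest on this fit. On recovered reads, the edgeR 4.0.16 quasi-likelihood test called 17, 8, 2, 14 and 34 of the 76 genes in the comparisons of days 3, 7 and 30 with day 0, of day 7 with day 3 and of day 30 with day 7, and 38 over the 4 groups. DESeq2 1.42.0 called 16, 11, 4, 16, 35 and 42.

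The genes and lists were chosen with earlier results of these data known. Named genes were up to 10 rises and 10 falls per comparison among those that passed, the 10 smallest p over the 4 groups, 15 of set function, the 5 highest and 5 lowest per kilobase, and up to 4 of each other list. Lengths and GC content came from GENCODE M21, which held 14232 of the 14460 identifiers and 75 of the 76 genes, and promoters from RefSeq. Replicate numbers were not used as a block: deviations of same-numbered libraries correlated at a median r of 0.00490.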

Additional observations from a re-analysis of the deposited data

Results flagged for a closer look

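In 8 of the 76 genes every day 7 library lay above, and every day 30 library below, all day 0 libraries, and the difference itself passed in limma at day 30 against day 7. Of all genes tested, 7.69% lay on opposite sides of the day 0 range in 1 of the 2 directions, whether or not limma passed them. Counted in that way the family again had 8 of 76, a share little above that of all genes. None of the 8 passed both at day 7 and at day 30 against day 0. The changes at day 30 against day 7 were -1.20 for Mrpl12, -0.97 for Mrpl2, -0.97 for Mrpl20, -1.14 for Mrpl30, -0.90 for Mrpl40, -0.70 for Mrpl41, -0.94 for Mrps18a and -1.20 for Mrps21.

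Mrpl12 also lay below the day 0 range at day 3 and above it at day 7, with a change of 1.01 at day 7 against day 3. It was the only gene of the family on opposite sides of the day 0 range on these days. Of all genes tested, 4.27% were so, in either direction, so this course was not more common in the family.

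The pseudogene copy Mrpl23-ps1, which the name rule leaves out, had a signal of at least 18.5 in the day 7 libraries, above every day 0 library (adjusted p = 0.00447). How reads were divided between this row and Mrpl23 was not tested.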

How the results depend on the processing

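Counts of genes that passed were recomputed under each alternative. Taking the day 30 libraries as 1 sample gave 4 genes at day 7 against day 0 (from 8), 0 at day 30 against day 0 (from 2), 7 at day 7 against day 3 (from 14), 4 at day 30 against day 7 (from 34) and 10 over the 4 groups (from 38). Array weights gave 5, 14 and 8 for days 7 and 30 against day 0 and for day 7 against day 3, and fits of the compared groups alone gave 2, 9 and 6. DESeq2 gave 4 at day 30 against day 0, leaving out day 0 replicate 1 and day 7 replicate 2 gave 8, and quantile normalisation gave 9 at day 7 against day 3. A pseudocount of 5 moved the median at day 30 against day 7 to -0.30. Median centring moved the summed signal to 1091 at day 3 and 836 at day 30, quantile normalisation to 831 and removal of GC and length trends to 837 at day 30. The median at day 3 against day 0, -0.00, lay on either side of 0 by setting, and the balance of higher and lower calls at day 7 against day 3 turned under quantile normalisation. The causes were not tested.

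With each library left out in turn, 9 to 19 genes passed at day 3 against day 0, 4 to 16 at day 7 against day 0, 0 to 6 at day 30 against day 0, 6 to 18 at day 7 against day 3, 23 to 34 at day 30 against day 7 and 26 to 40 over the 4 groups. The medians ran from -0.01 to 0.04, 0.25 to 0.29, -0.27 to -0.23, 0.18 to 0.24 and -0.50 to -0.41, and the summed signals from 956 to 987, 1056 to 1079, 1118 to 1185 and 811 to 820 at days 0, 3, 7 and 30. Where an arm kept 2 libraries, all groups shared 1 spread.

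The labels do not pair libraries by number. The correlation of deviations was -0.0831 to 0.210 in 18 same-numbered pairs, with a median of -0.00690 in 36 others. With the replicate block 16, 9, 2, 16 and 30 genes passed in the 5 comparisons and 34 over the 4 groups.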

Other observations

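Of 12 measured regulators of nuclear genes for mitochondrial proteins, 7 were higher at day 30 than at day 7 and none lower, against 19.7% higher and 19.9% lower among all genes tested. Values with GC and length trends removed, with day 30 as 1 sample or with single libraries left out are not given for this list. Gabpb2 had 94.2 ± 3.28 at day 30, against 53.7 ± 22.2 at day 7 (0.88 ± 0.21, adjusted p = 0.00497), and Gabpb1 had 23.1 ± 3.1, against 12.9 ± 5.24 (0.84 ± 0.22, adjusted p = 0.00768), both subunits of GABP. Myc had 30.9 ± 1.11 at day 30, against 16.9 ± 1.85 at day 7 (0.83 ± 0.19, adjusted p = 0.00305). Nrip1, a corepressor of respiratory genes, had 73.8 ± 7.75, against 44.3 ± 15.2 (0.78 ± 0.21, adjusted p = 0.00904). At day 7 against day 3, 4 were lower, among them Nrf1 (-0.55 ± 0.19, adjusted p = 0.0242), against 23.5% of all genes tested. At day 3 against day 0, 1 was higher and 2 lower, against 22.1% of all genes tested in each direction. At day 30 against day 0, 1 was higher, against 3.45%, and at day 7 against day 0 none passed.

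Of 19 measured mitochondrial aminoacyl-tRNA synthetases and partners, 3 were higher and 3 lower at day 30 than at day 7. These are no larger shares than the 19.7% higher and 19.9% lower among all genes tested. Lars2 was among the lower ones, with 7079 ± 873 at day 30, against 39312 ± 23902 at day 7, and which reads fell on its row was not tested. Rars2 was higher at day 3 than at day 0 (0.81 ± 0.21, adjusted p = 0.00498), lower at day 7 than at day 3 (-0.81 ± 0.21, adjusted p = 0.0046) and higher at day 30 than at day 7 (0.77 ± 0.21, adjusted p = 0.00854). Of 13 genes for mitochondrial transcription and RNA stability, Pnpt1, an RNA-degrading enzyme that interferon is known to induce, had 89.0 ± 10.4 at day 3, against 21.2 ± 1.21 at day 0 (2.01 ± 0.16, adjusted p = 8.5e-08). Another 1 of the 13 was higher and 1 lower in that comparison, against 22.1% of all genes tested in each direction.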
